A study of Mus musculus with 53 samples.

Results

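Neuropeptides are short signalling peptides that neurons cut from longer precursor proteins, pack into dense core vesicles and release onto G protein-coupled receptors. In the mature cortex most of the precursor genes described here mark classes of GABAergic interneurons, which are born in the ganglionic eminences below the cortex and migrate into it before birth. Other precursors are better known from the striatum, amygdala and hypothalamus. The genes are the 10 neuropeptide precursors Sst, Npy, Cck, Vip, Tac1, Penk, Pdyn, Cartpt, Crh and Adcyap1, among 37991 gene IDs measured. They were chosen by name, though with earlier results of these data known. All 10 were found in the data and all were listed above 0.

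The study of histone turnover behind these data sequenced RNA of cultured mouse neurons and astrocytes and of brain tissue, in 53 samples and 19 groups. Only the embryonic cortex group is used here: cortical tissue of unstimulated C57bl/6 embryos at stage E16.5, in 3 libraries. The authors deposited 1 mean per gene over these libraries, in RPKM, reads divided by gene length and by library depth, and no other age, region or treatment is compared. The sources used here do not say whether the libraries came from separate embryos, litters or pools.

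The deposited means were exact enough to be taken apart again. Values of genes with a single read fell on 3 whole totals, 51309675, 64809251 and 71590977 reads, and from these totals the whole reads of each precursor in each library were recovered. The libraries are named below by their depth (51.3, 64.8 and 71.6 M reads), since nothing ties them to the sample labels. The recovery also showed that the authors had divided by the span of each gene, introns included, so that genes with long introns have low RPKM. Levels are therefore also given per kilobase of exon, with exon lengths of GENCODE M21. In bulk tissue, fewer cells of a type and less RNA per cell cannot be told apart.

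The tissue carried the markers of its label. Of 11 genes of cortical excitatory neurons, 9 were at 1 RPKM or more, with Neurod6 at 193.7 and Tbr1 at 24.4 RPKM, transcription factors of cortical projection neurons. Among 13 genes of interneurons from the medial ganglionic eminence, 7 were at 1 RPKM or more (53.8%), and 4 of 9 (44.4%) were for the caudal eminence. Striatal genes were at that level in 4 of 16 cases (25%), and genes of hypothalamus and thalamus in 0 of 10. Of all protein-coding genes 31.6% were, so the caudal and striatal counts lay not far from that share. The library of 51.3 M reads stood apart in small non-coding RNAs: Rn7sk had 873 reads there against 28 and 40 in the libraries of 64.8 and 71.6 M reads, and Rpph1 had 181 against 7 and 13.

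Sst is the precursor of somatostatin, the inhibitory peptide of a main class of cortical interneurons, and the coding end of its mRNA is shown because it spells the mature peptide. The gene has 2 exons and 116 codons. Its last 14 codons, which encode somatostatin-14, lie in the second exon on the minus strand (GRCm38, GENCODE M21), with the peptide in capitals and the stop codon in lower case.

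Sst coding end, chr16:23889729-23889773: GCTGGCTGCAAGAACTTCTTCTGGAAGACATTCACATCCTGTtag

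The promoter of Sst is known as the place where the cAMP response element was described, the site bound by the activity-regulated factor CREB. Promoter windows of 250 bases before to 50 bases after the RefSeq start site (GRCm38.p6) were found for 8 of the 10 precursor genes, not for Penk and Crh. The 8 genes had 10 such windows in all. The palindrome TGACGTCA was in 2 of the 10 windows, those of Sst and Cartpt, against 1.79% of 32851 promoters. Its first bases TGACGTC were searched on both strands, so that every full palindrome counts too. They were in 5 of the 10 windows, from 4 of the 8 genes, with Vip and Adcyap1 added, against 3.21% of all promoters. These letters are a description of the windows and not evidence of binding. The stretches around them are shown with the match in capitals, because the genes that hold them span the whole range of levels below.

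Sst, chr16:23890859-23890918, minus strand: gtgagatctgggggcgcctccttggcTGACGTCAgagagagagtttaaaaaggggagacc

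Cartpt, chr13:99900762-99900821, minus strand: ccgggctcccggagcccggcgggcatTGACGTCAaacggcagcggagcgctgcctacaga

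Vip, chr10:5639113-5639171, plus strand: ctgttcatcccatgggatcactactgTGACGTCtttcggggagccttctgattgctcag

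Adcyap1, chr17:93198900-93198958, plus strand: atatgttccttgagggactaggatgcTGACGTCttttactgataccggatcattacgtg

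The match began 48 bases before the start site in Sst, 112 in Cartpt, 79 in Vip and 91 in Adcyap1. From another start site of Adcyap1 the same match lay 242 bases away. Sst was the highest of the 10 genes in RPKM, and Cartpt and Vip were the lowest.

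Few of the precursors were high in the deposited RPKM. Sst, Npy and Adcyap1 were at 1 RPKM or more, which is 3 of 10 genes (30%), against 18.8% of all gene IDs and 31.6% of protein-coding genes. The median of the 10 was 0.138 RPKM, above the 0.01397 of all gene IDs and below the 0.2142 of protein-coding genes. Per kilobase of exon, Cck passed 1 as well, giving 4 of 10 (40%) against 54.1% of protein-coding genes. The precursors were thus not above protein-coding genes at large in how many reached this level.

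Sst stood at 20.06 RPKM, and 2.12% of protein-coding genes were at this level or above. Its recovered reads were 982 in the library of 51.3 M reads, 2318 in that of 64.8 and 1510 in that of 71.6, or 19.14, 35.77 and 21.09 RPM (reads per M reads of the library, with no length). The library of 64.8 M reads was the high one, and the others lay close together. The recovery for Sst rests on a length of 1263 bases, 122 shorter than in the later annotation, the 1 length of 971 tried that gave whole reads. It is the least certain of the 10, because lengths with part of a base added, which no gene can have, gave a solution in 5 cases over 9 searches of the same size. The deposited level of Sst does not depend on this, but its RPM, its RPKM by library and its level per kilobase of exon do.

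Npy encodes neuropeptide Y, which in the cortex is made by interneurons, many of which also make somatostatin. It stood at 2.96 RPKM, with 980, 1169 and 1663 reads in the libraries of 51.3, 64.8 and 71.6 M reads, or 19.1, 18.04 and 23.23 RPM. Unlike Sst, it was highest in the deepest library, and its highest value was 1.29 times the lowest.

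The order of Sst and Npy depended on the length used. Sst was 6.78-fold above Npy in RPKM, and above it in each library, by 5.39, 10.7 and 4.89-fold. Npy has a span of 6797 bases for 566 bases of exon, while Sst has 721 bases of exon in a far shorter span. Per kilobase of exon the means were 35.14 for Sst and 35.55 for Npy, a Sst to Npy ratio of 0.988, and the libraries overlapped: the ratio was 0.787, 1.56 and 0.713. As reads with no length the ratio was 1.26, and with exon lengths cut by the bases missing from the span found it was 1.19. Both, the ratios by library and the values of Sst per kilobase of exon rest on the length found for Sst. Which gene leads per kilobase of exon is therefore not settled. Sst held 78.0% of the summed RPKM of the 10 genes and 45.0% of the sum per kilobase of exon, where Npy held 45.5%. Both genes together made up 89.5% of the first sum and 90.5% of the second.

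**Figure D1:**
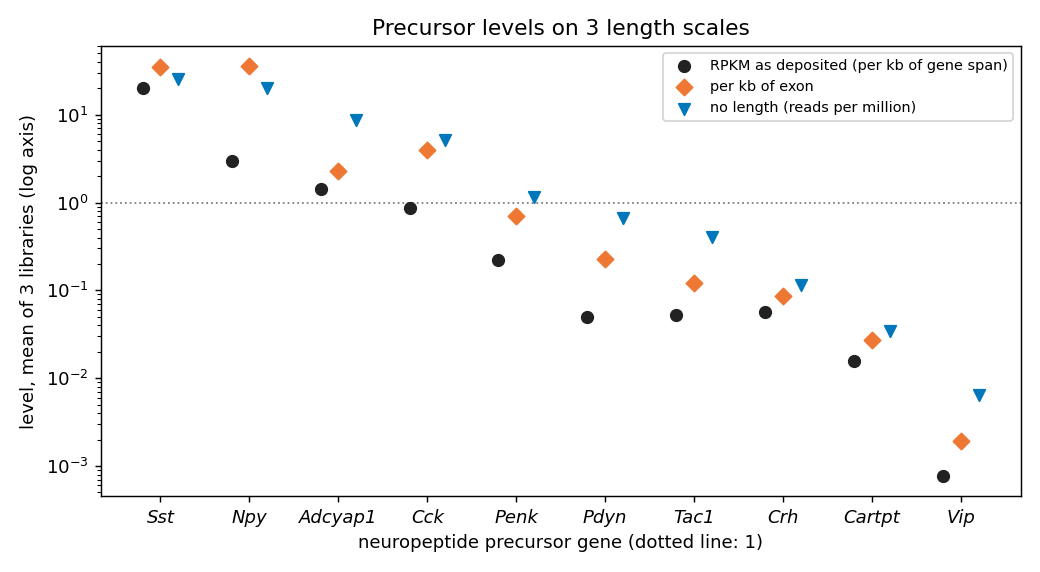
Level of each precursor gene on a log axis, as the mean of 3 libraries: deposited RPKM (black circles), per kilobase of exon (orange diamonds) and RPM with no length (blue triangles). Sst lies at 20.06 and Npy at 2.96 RPKM, but they lie side by side per kilobase of exon, at 35.14 and 35.55, and Cck passes 1 only on the scales other than RPKM.

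Adcyap1 encodes PACAP, a peptide that raises cAMP in its target cells and acts on developing neurons. It was at 1.421 RPKM, with 463, 537 and 611 reads, or 9.024, 8.286 and 8.535 RPM in order of depth. It varied least of the 10 genes, its highest library being 1.09 times its lowest. Its length of 6063 bases was searched like that of Sst, and the search with part-base lengths gave 2 solutions over 9 searches.

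Cck, the cholecystokinin precursor, is made both by interneurons and by projection neurons of the cortex. It was at 0.8764 RPKM, just under the threshold of 1, with 216, 414 and 345 reads, or 4.21, 6.388 and 4.819 RPM. The library of 64.8 M reads was again the highest, by 1.33-fold over the next. Per kilobase of M21 exon Cck reached 3.938 and passed Adcyap1 at 2.281, reversing their order in RPKM, and did so in each library. The M21 span of Adcyap1 is 1457 bases longer than the length found. With the authors' exons this order may differ, also by library.

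Penk, Pdyn and Tac1 are known above all from the projection neurons of the striatum. Penk, the enkephalin precursor, was at 0.219 RPKM, with 40, 95 and 88 reads. In RPM it stood at 0.7796, 1.466 and 1.229, so that the shallowest library was low. In GENCODE M21 an exon of Penk overlaps A830012C17Rik on the opposite strand, and whether strand was used in counting is not given. The other 9 precursors overlapped no other gene in that annotation.

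Pdyn, the dynorphin precursor, was at 0.04979 RPKM. Its 14, 81 and 33 reads were 0.2729, 1.25 and 0.461 RPM, and the library of 64.8 M reads held 2.71 times the next highest. Tac1, the precursor of substance P and neurokinin A, was at 0.05179 RPKM. Its 11, 53 and 14 reads were 0.2144, 0.8178 and 0.1956 RPM, the same library holding 3.81 times the next. Tac1's length was searched, and the 7902 bases found equal the span of one of its annotated transcripts. Without that library, the mean would be 0.02763 RPKM for Pdyn and 0.02594 for Tac1.

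Crh, Cartpt and Vip were close to the limit of the depth. Crh encodes corticotropin-releasing hormone, which starts the stress response of the pituitary and is also made by cortical interneurons. It was at 0.05742 RPKM on 7, 8 and 6 reads, a total of 21 with a 95% exact Poisson interval of 13 to 32.1. Cartpt, the CART peptide precursor, had 0, 4 and 3 reads, a total of 7 (2.81 to 14.4), and was at 0.01571 RPKM. Vip encodes vasoactive intestinal peptide, the marker of an interneuron class from the caudal ganglionic eminence. It had 1 read in all, in the library of 51.3 M reads, among 188 M reads, with an interval of 0.0253 to 5.57 reads. A count of 0 would have allowed up to 3 reads, so Vip was not detectable above that limit. These intervals cover counting error only.

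**Figure D2:**
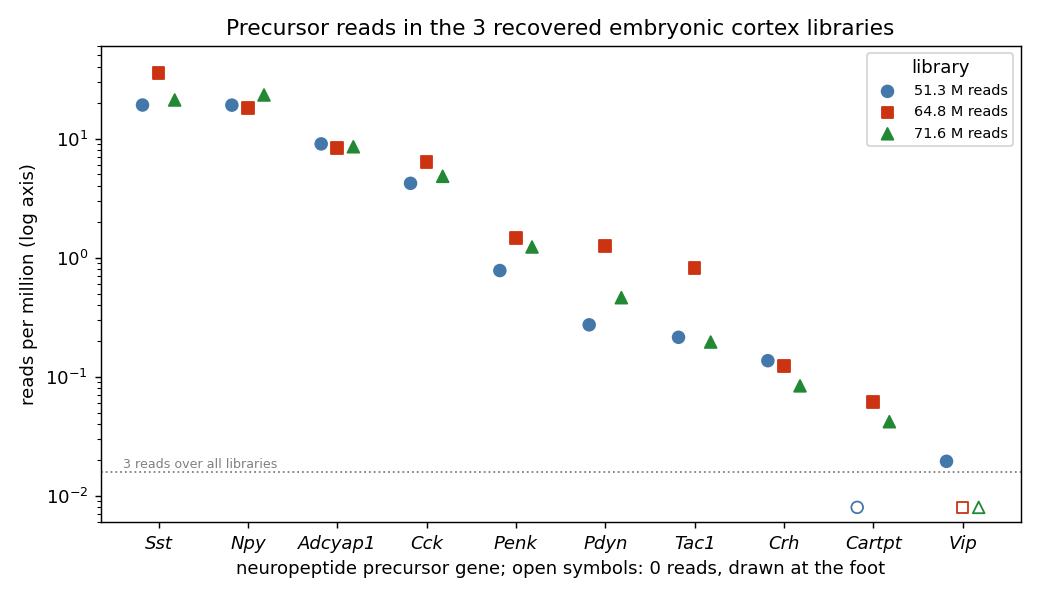
RPM of each precursor gene in the 3 recovered libraries on a log axis, 1 symbol per library, with open symbols for 0 reads and a dotted line at 3 reads over all libraries. Pdyn and Tac1 lie well higher in the library of 64.8 M reads, at 1.25 and 0.8178, than in the others, and Adcyap1 shows hardly any spread.

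Per kilobase of M21 exon the order from the top was Npy, Sst, Cck, Adcyap1, Penk, Pdyn, Tac1, Crh, Cartpt and Vip. M21 spans were longer than the lengths found, by 3053 bases for Tac1, 1457 for Adcyap1, 403 for Cartpt and 122 for Sst. The places of these genes may therefore differ with the authors' exons. Neighbours whose libraries overlapped were Npy and Sst, Pdyn and Tac1, Tac1 and Crh, and Cartpt and Vip. The widest gap among genes above the limit of the depth was between Sst and Cck, 8.92-fold in the means and 7.92 to 10.1-fold by library. In RPKM, Crh was 1.11-fold above Tac1 and Tac1 was 1.04-fold above Pdyn, with overlapping libraries in both pairs.

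Some precursors were high in the library of 64.8 M reads and others were not. The ratio of this library to the mean of the others was 3.99 for Tac1, 3.41 for Pdyn, 1.78 for Sst, 1.46 for Penk and 1.42 for Cck, while it was 0.944 for Adcyap1 and 0.852 for Npy. For a count that this library itself does not bring genes into, genes with at least 50 reads over the other libraries were taken. Tac1 with 11 and 14 reads there and Pdyn with 14 and 33 fell short of that minimum, so that their ratios are given as values only. Of the 5 precursors that passed it, 1 was at least 1.5-fold above both other libraries, Sst, whose reads are the least certain, and without Sst it was 0 of 4. Over all 5092 such genes 1.51% were, counting genes recovered at their annotated span and the precursors. The library was the highest in 3 of the 5, Sst, Cck and Penk, against 37.4% of all such genes.

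**Figure D3:**
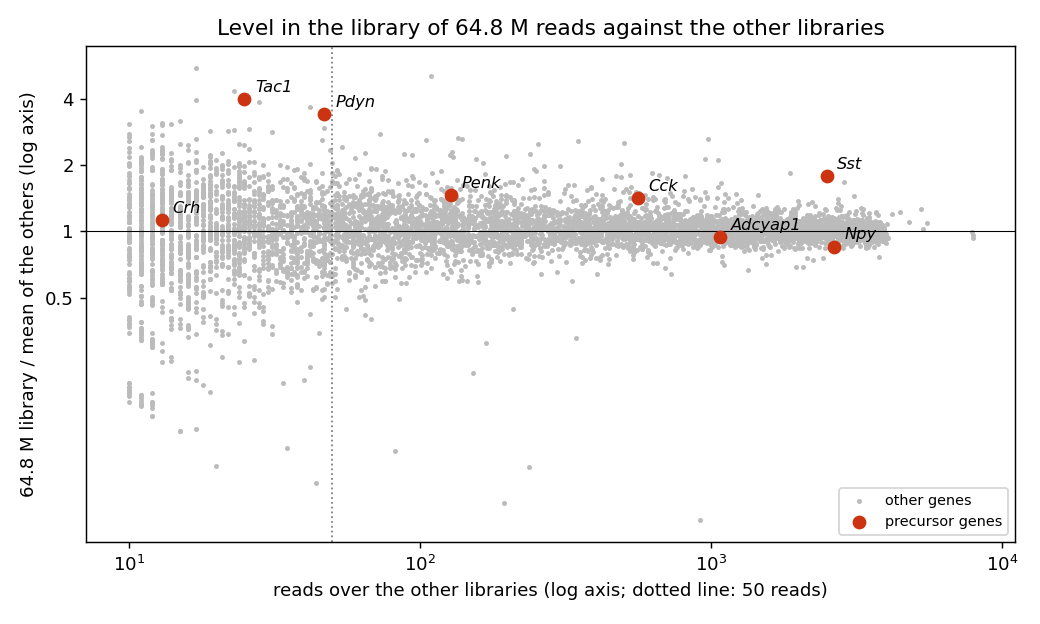
Ratio of the library of 64.8 M reads to the mean of the other libraries (log axis) against the reads of each gene over the other libraries (log axis), for genes with at least 10 such reads, in grey, and the precursors among them in red, with a dotted line at 50 reads. Tac1 at 3.99 and Pdyn at 3.41 lie left of the line, where ratios spread widely, and Sst at 1.78 lies above 1 and Adcyap1 and Npy below it.

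Some genes of other brain regions were also high in that library. Otp and Sim1, transcription factors of hypothalamic and amygdala neurons, had 21 and 23 reads in the library of 64.8 M reads, against at most 1 read in each of the others. Lhx9, a factor of thalamus, hypothalamus and amygdala, had 157, 501 and 298 reads. Nkx2-2 had 10, 21 and 19 reads and Hmx3 had 1, 0 and 0. Over the 5 genes of the hypothalamic and thalamic list with recovered reads, the summed level was 3.294, 8.733 and 4.456 RPM in order of depth. Of the other 5, Nr5a1 and Rax were listed at 0, and the list as a whole lay at 0 to 0.2131 RPKM. The sum over 13 recovered genes of the striatal list was 147.3, 153.0 and 149.0 RPM, level across the libraries, as were Ppp1r1b, a dopamine signalling protein, at 21.03, 22.84 and 23.93 and the dopamine receptor Drd1 at 7.854, 8.147 and 8.576. Nkx2-1, the factor that specifies the medial ganglionic eminence, had 43, 85 and 51 reads, and the recovered genes of that list summed to 148.3, 193.9 and 181.7 RPM. The reads of Otp, Sim1, Lhx9, Nkx2-1 and Drd1, and so the sums they enter, rest on searched lengths. Those of Sim1 and Drd1 equal the span of an annotated transcript. The part of other regions in the values of Tac1, Pdyn and Sst was not tested.

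The receptors of the 10 peptides are mostly G protein-coupled receptors that raise or lower cAMP. Of 23 measured, 4 were at 1 RPKM or more (17.4%), against 31.6% of protein-coding genes, and their median was 0.01032 RPKM. On the log2(RPKM + 0.1) scale, on which differences of low genes are understated, the median of the precursors was 1.02 above that of the receptors. All 5 somatostatin receptors were listed above 0. Sstr2 was the highest receptor at 7.08 RPKM and Sstr1 stood at 2.17, while Sstr3 was at 0.5458, Sstr4 at 0.1408 and Sstr5 at 0.00681 RPKM. Beside Npy, Npy1r was at 1.167 and Npy2r at 0.2434 RPKM, Npy5r at 0.04205 and Npy4r at 0.008321, and Npy6r was listed at 0. PACAP's own receptor Adcyap1r1 was at 2.219 RPKM, above its ligand gene in RPKM, and Vipr1 and Vipr2, which bind both PACAP and VIP, were at 0.07388 and 0.02225 RPKM.

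The receptors of the other peptides were low in RPKM. Crhr1, the main CRH receptor, stood at 0.14 RPKM and its relative Crhr2 at 0.006826. The cholecystokinin receptors Cckar and Cckbr were at 0.005911 and 0.00971 RPKM. Tacr1, the substance P receptor, was at 0.006866, Tacr3 at 0.006184 and Tacr2 at 0.0003795 RPKM. The opioid receptors Oprk1, Oprd1 and Oprm1, for dynorphins, enkephalins and related peptides, were at 0.01032, 0.004155 and 0.001385 RPKM. Long introns weigh on these values: Oprm1 has a span of 279703 bases, and per kilobase of exon it was at 0.04821. Crhr1 passed 1 on that scale, at 2.428. Of 8 receptors with at least 50 reads over the other libraries, 2 were at least 1.5-fold above both of them in the library of 64.8 M reads, against 1.51% of all such genes. These were Tacr1 with 38, 111 and 57 reads, the receptor for a peptide of Tac1, and Npy2r with 84, 220 and 147 reads. Npy, the ligand gene of Npy2r, was lower in that library, with a ratio of 0.852. The lengths of Tacr1 and Npy2r were searched, while the 1.51% covers genes recovered at their annotated span and the precursors.

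Among 35 other neuropeptide precursors measured, 1 was at 1 RPKM or more (2.86%, against 31.6% of protein-coding genes) and 5 were listed at 0. Their median was 0.02874 RPKM, and on the log2(RPKM + 0.1) scale the median of the 10 precursors was 0.80 higher. The highest were Npff at 1.517, Nmb at 0.5993 and Nts at 0.5449 RPKM, and the lowest above 0 was Nmu at 0.0002145 RPKM. Npff shares exon bases with Gm28047 on the same strand, so its reads may not all be its own. Cort, which encodes cortistatin, a relative of somatostatin, was at 0.3397 RPKM with 24, 35 and 54 reads. No other precursor with at least 50 reads over the other libraries passed 1.5-fold in the library of 64.8 M reads (0 of 9, against 1.51%).

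Of 15 genes that turn precursors into peptides, 6 were at 1 RPKM or more (40%), against 31.6% of protein-coding genes, and their median was 0.3512 RPKM. They were led by Pcsk1n at 7.847, Ctsl at 4.203 and Cpe at 2.234 RPKM. These are an inhibitor of prohormone convertase, a cathepsin that also cuts precursors, and the carboxypeptidase that trims the cut ends. The convertases Pcsk2 and Pcsk1 lay lower in RPKM, at 0.05772 and 0.03038, and per kilobase of exon Pcsk2 was at 1.971 and Pcsk1 at 0.2313. Of the related convertases in the list, Furin was at 1.797 and Pcsk7 at 1.405 RPKM, but Pcsk4 was at 0.2228 and Pcsk5 at 0.0255. The lowest processing gene above 0 was Pcsk6 at 0.01151 RPKM, and Cpz was listed at 0. Pcsk1, with 48, 119 and 80 reads, was the 1 of 7 processing genes at least 1.5-fold above both other libraries in that of 64.8 M reads, against 1.51% of all such genes. Its length was searched, so that it lies outside the genes behind that share.

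Granins and dense core vesicle genes were at 1 RPKM or more in 9 of 16 cases (56.2%), against 31.6% of protein-coding genes. Their median was 1.71 RPKM. Rab3a, a vesicle GTPase, stood at 36.05, Syt4, a synaptotagmin, at 26.7 and Chga, chromogranin A, at 5.931 RPKM, and the lowest was Cadps2 at 0.009099. None of the 4 with recovered reads passed 1.5-fold in the library of 64.8 M reads (0 of 4, against 1.51%). Of 10 genes of peptide degradation and binding, 1 was at 1 RPKM or more (10%, against the same 31.6%), Thop1 at 3.459 RPKM. Next came Ece2 at 0.7265 and Nln at 0.5226 RPKM, peptidases like Thop1. The lowest of this list was Dpp4 at 0.01495 RPKM. Crhbp, the binding protein of CRH, was at 0.01873 RPKM on 10, 21 and 17 reads.

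**Figure D4:**
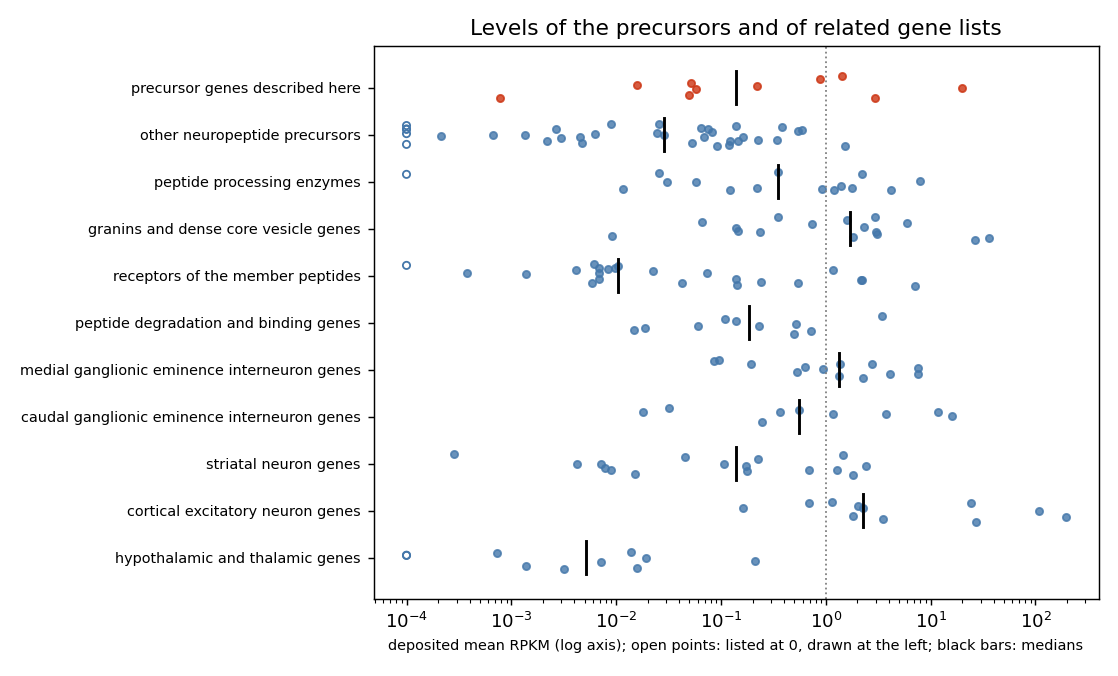
Deposited mean RPKM of each gene (log axis) for the 10 precursors in red and 10 related gene lists in blue, with open points for genes listed at 0, black bars for medians and a dotted line at 1 RPKM. The precursors have a median of 0.138 RPKM, between the receptors at 0.01032 and the dense core vesicle genes at 1.71.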

How the data were processed

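RNA of embryonic cortex was extracted with Trizol and made into TruSeq libraries for Illumina sequencing, per the labels' protocols. The authors deposited 1 column of mean RPKM, used as their mean with no SD. Reads were handled on mm9 with, in no stated role, HTSeq 0.6.0, Cuffdiff 2.0.2, DESeq 1.16.0, TopHat2 2.0.9 and Bowtie2 2.1.0, per the submitters' processing notes. The other 50 samples were not analysed here.

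Symbols and lengths came from GENCODE M21 (32919 IDs matched). Dividing 1 read by the mean of low genes gave whole library totals for 81.6% of 1506 values with span as end minus start, 0.465% with both ends counted and 0.149% with exons. With these totals, 64.84% of 16956 genes had 1 solution in whole reads, 0 had more, and 1 had one at a length off by 0.5 bases. For 48 listed genes without a solution, each length from 0.5 to 1.2 times the span was tried, and 40 gave 1 length. Of these, 7 equal the span of an annotated transcript. Exon values of other genes rest on the M21 span. The recovery was checked on simulated data with known gene lengths and with read totals below those of Sst and Npy. That check does not cover the length searches or such high totals.

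Members and lists were chosen with earlier results of these data known. The recovery, its tolerance (set after 3 tighter or looser ones), the length window, the minimum of 50 reads over the other libraries (100, then 50, over all libraries at first), the 1.5-fold rule and the library singled out were chosen after values were seen. Named genes are all 10 precursors, all receptors, and of other lists the 3 highest, the lowest above 0 and the number at 0. Genes named for their library values, Cort, Crhbp and the prohormone convertases were named after their values were seen. The library values of the striatal list are given as a sum and for some of its genes only, and the rest are not reported here. No test was made, since only 1 group has values. Analyses used Python 3.11.15, numpy 2.4.6 and numba 0.67.0.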

Additional observations from a re-analysis of the deposited data

How the results depend on the processing

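No paired analysis was possible because only 1 group has values, so no groups can be paired. Ratios between precursors within each library are given above as values. The number of precursors at the threshold was 5 at 0.1 RPKM and 1 at 5 RPKM, against 3 at 1 RPKM, and 3 without each library in turn. Their median of 0.138 RPKM became 0.469 per kilobase of exon, 2.57 as a mean, 0.0574 without Sst, and 0.123 to 0.160 without each library. The share of Sst was 78.0% as deposited, 45.0% per kilobase of exon, 41.1% as reads with no length, 88.2% without Npy and 73.8 to 79.9% without each library. Its ratio to Npy, 6.78, turned to 0.988 per kilobase of exon, and was 1.26 with no length, 1.19 with exon length less the missing bases and 5.11 to 7.96 without each library. The values of Sst without each library, with no length and per kilobase of exon rest on the length found for it. The difference from other precursors, 0.80, was 1.49 per kilobase of exon, 0.142 with a pseudocount of 1, 1.68 with 0.01, 0.428 without genes at 0 and 1.55 as a mean. That from the receptors, 1.02, was 0.168 and 2.61 with those pseudocounts. At 0.1 RPKM the list counts were 11 for other precursors, 10 for processing, 14 for dense core vesicles, 8 for receptors, 7 for degradation, 11 and 7 for the medial and caudal eminences, 9 for striatum and 1 for hypothalamus and thalamus. At 5 RPKM they were 0, 1, 3, 1, 0, 2, 2 and 0 in the same order up to striatum, and 4 for excitatory neurons. The share of all genes at 0.1 and 5 RPKM was not computed. Counts at these levels, also those of the 10 precursors, are therefore values only. Per kilobase of exon the list counts were 5 for other precursors (with Agrp, whose annotated span overlaps other genes and may not be the authors' own), 10 for processing, 14 for vesicles, 5 for degradation, 12 and 8 for the eminences and 8 for striatum. On that scale 54.1% of protein-coding genes passed 1, against 31.6% in RPKM. The count of precursors high in the library of 64.8 M reads, 1 of 5, was 2 of 5 at 1.3-fold (3.99% of all genes), 0 of 5 at 2-fold (0.314%), 0 of 4 without Sst and 1 of 5 with at least 100 reads over the other libraries. With 50 reads over all libraries it was 3 of 7 (2.15%), but Tac1 and Pdyn pass that minimum only through the library compared. Of 50 values of single genes, ranks and list medians on other scales, 42 moved by more than the spread of the libraries or had no such spread, as all list medians did. With 1 to 21 reads, Vip, Cartpt and Crh allow no comparison between libraries.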
